A study of Mus musculus with 12 samples.

Results

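The enzymes that make bile acids from cholesterol and join them to amino acids were followed in the liver of adult female mice. They are the 10 genes Cyp7a1, Cyp7b1, Cyp8b1, Cyp27a1, Cyp39a1, Hsd3b7, Akr1d1, Amacr, Baat and Slc27a5. Their members were all probe sets that the platform annotation gives to these symbols, 16 of the 45101 probe sets on the array. The mice were of B6.129 background and either WT (Esr1+/+) or aERKO, which is homozygous for loss of Esr1, the gene of estrogen receptor alpha (Esr1-/-). Mice of each genotype received the NIH-31 diet, called normal diet here, or a research diet with 60 kcal% fat, and feeding lasted 2 weeks. Each of the 4 groups, WT normal, WT high-fat, aERKO normal and aERKO high-fat, held 3 samples with 1 array each. The labels name no tissue to which the loss of Esr1 is limited. The allele, the cycle stage and the hour of collection are not given in the sources used here.

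Bile acids are the main end product of cholesterol and are made in hepatocytes. In the classical route Cyp7a1 hydroxylates cholesterol itself, whereas in the alternative routes Cyp27a1 or other enzymes first make oxysterols, which Cyp7b1 or Cyp39a1 then hydroxylate. Hsd3b7, Cyp8b1 and Akr1d1 remodel the sterol rings, and Cyp8b1 directs the product toward cholic acid. Amacr prepares the side chain for shortening in peroxisomes, and Slc27a5 and Baat activate bile acids and conjugate them, in mice mainly with taurine. In rodents, bile acids returning from the gut repress Cyp7a1 and Cyp8b1, and hepatic Cyp7b1 is known to be higher in male than in female mice.

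The arrays gave 1 linear MAS5 signal per probe set, which the authors had scaled so that the trimmed mean was 500.004 on each array. Array medians lay between 75.4 and 114. Esr1 was lower in every aERKO sample than in every WT sample by its 2 brighter probe sets, and the brighter one differed by -2.07 ± 0.204 (SE) on the log2 scale on normal diet and by -2.05 ± 0.204 on high-fat diet. The summed signal of 6 hepatocyte markers ranged from 353982 to 387139 in WT normal, 308436 to 352631 in WT high-fat, 276478 to 330024 in aERKO normal and 273008 to 310241 in aERKO high-fat, with no defining marker near 0 and the lowest sums in the aERKO groups. The part of that shift in the genotype differences was not tested. Of 5 measured cholangiocyte markers 3 passed the filter, and the summed signal of the 5 was 319 to 803 in WT normal, 294 to 558 in WT high-fat, 254 to 357 in aERKO normal and 245 to 285 in aERKO high-fat. The mean log2 signal of 5 Kupffer cell markers, all tested, was 10.82 to 10.97 in WT normal and 10.25 to 10.81 in aERKO normal, which did not overlap. With high-fat diet it was 10.505 to 10.995 in WT and 10.11 to 10.62 in aERKO, which overlapped. The part of these markers in the genotype differences was not tested. Transcripts of 7 pancreatic acinar genes were high on 4 arrays, with mean log2 signals of 13.9 (WT normal replicate 2), 13.6 (aERKO normal replicate 1), 12.7 (replicate 3 of WT high-fat) and 10.2 (its replicate 2). The other 8 arrays had 5.79 to 6.83. Skeletal muscle transcripts were high in aERKO normal replicate 1 (10.6) and aERKO high-fat replicate 2 (8.68), against 5.59 to 7.14 on the others. The member differences and the calls of other named pathway enzymes and regulators were recomputed without these arrays. Leaving out the 4 arrays with pancreatic transcripts kept only replicate 1 in WT high-fat. That fit thus holds no spread within WT high-fat, and its adjusted p is weak evidence either way. In liver tissue, fewer cells of a type and less RNA per cell cannot be told apart.

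Tests covered the 25400 probe sets that were brighter than the median of the array in 3 or more of the 12 samples. All 10 genes passed with at least 1 probe set, 14 probe sets in all, and each of the 14 lay above the median on all 12 arrays. The other 2 were 1 further Cyp7b1 probe set (signals of 0.796 to 53.7) and 1 further Cyp27a1 probe set (1.9996 to 29.5), which lay above the median on 0 arrays. Differences were taken on log2(signal + 16) with limma, and a probe set was called at an adjusted p (Benjamini-Hochberg over the 25400) under 0.05. Signals of different probe sets depend on their probes, so levels are compared between groups and never between genes. Where groups are said not to overlap, the share of all tested probe sets that separate in this way was not counted.

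**Figure D1:**
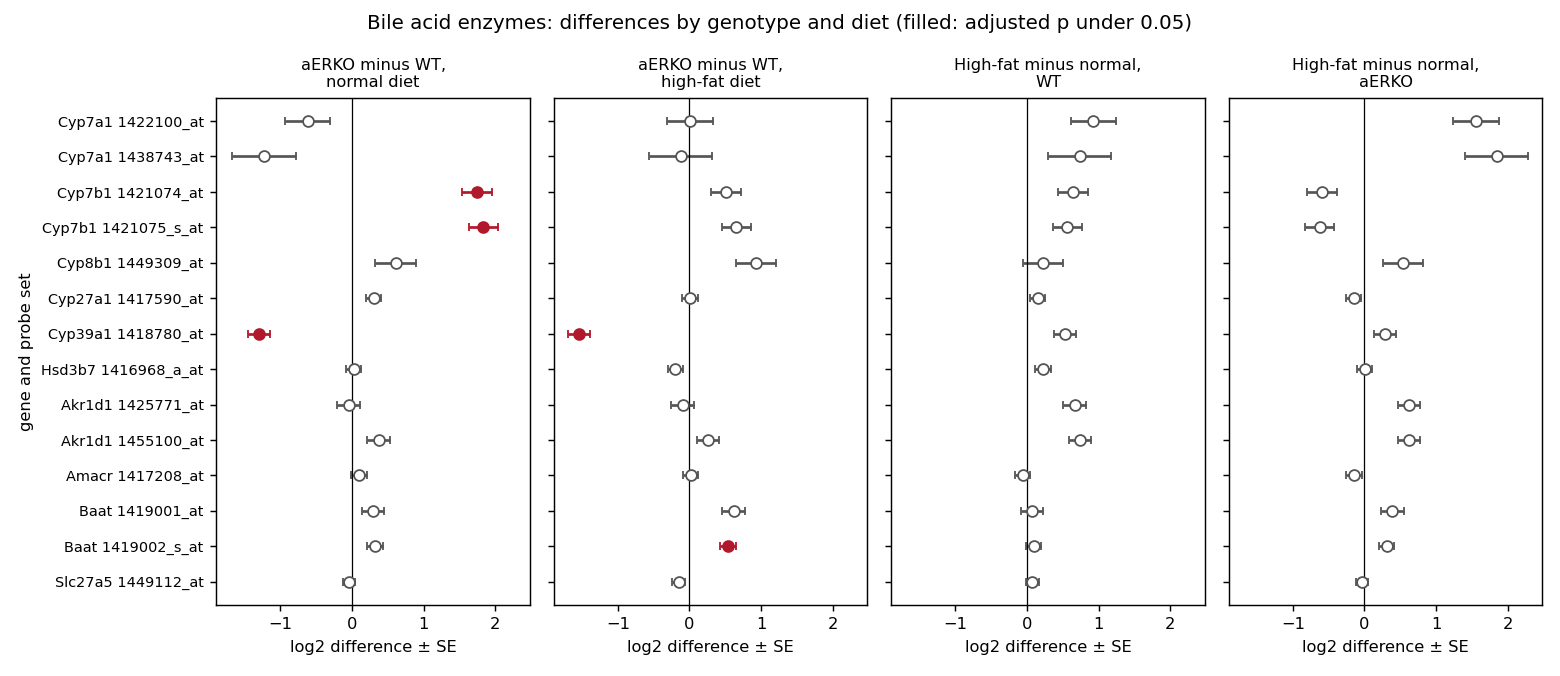
Log2 differences with standard errors (x axis) of the 14 tested probe sets (y axis) in the 4 comparisons of 2 groups, with 3 samples a group. Filled red points passed an adjusted p of 0.05, and these are both Cyp7b1 probe sets on normal diet, Cyp39a1 on both diets and 1 Baat probe set on high-fat diet.

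Among the enzymes that open the pathway, Cyp39a1 was lower in aERKO liver on both diets and Cyp7b1 was higher on normal diet. Cyp39a1 encodes an oxysterol hydroxylase of an alternative route, and its only probe set read 4559.6, 3649.8 and 4784 in the WT normal samples. The aERKO normal samples read 1826, 1899 and 1532. On high-fat diet it gave 5426, 7624 and 5875 in WT and 2378, 2255 and 1814 in aERKO. The 6 aERKO samples lay below the 6 WT samples with no overlap on either diet. The mean for normal diet was 4331 ± 601 (SD, n = 3) in WT against 1752 ± 194 in aERKO, and for high-fat diet 6308 ± 1161 against 2149 ± 296. The log2 difference was -1.29 ± 0.16 (SE) on normal diet (limma adjusted p = 0.000423) and -1.54 ± 0.16 on high-fat diet (limma adjusted p = 0.000102). Averaged over the diets it was -1.42 ± 0.11, that is, 0.374 times the WT signal (limma adjusted p = 2.87e-06). In WT the 3 high-fat samples lay above the 3 normal samples, by 0.53 ± 0.16 on the log2 scale, but this did not pass (limma adjusted p = 0.421). In aERKO the diet groups overlapped (0.29 ± 0.16, limma adjusted p = 0.616).

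Cyp7b1, the oxysterol and steroid hydroxylase that follows Cyp27a1, was measured by 2 bright probe sets that ran closely together. For the brighter one the signals were 1964, 1964 and 1416 in WT normal and 5145, 5914 and 6986 in aERKO normal. With high-fat diet they were 2869, 3415 and 2154 in WT and 2898, 4595 and 4653 in aERKO. From low to high the groups stood in the order WT normal, WT high-fat, aERKO high-fat and aERKO normal, with means of 1782 ± 316, 2812 ± 632, 4049 ± 997 and 6015 ± 925 (SD, n = 3 each). Of neighbours in this order, only WT high-fat and aERKO high-fat overlapped. On normal diet the genotypes differed by 1.75 ± 0.21 (SE) on the log2 scale, a fold of 3.37 (limma adjusted p = 0.000386). The dimmer probe set gave 1088, 1014 and 879 in WT normal and 3041, 3653 and 4128 in aERKO normal, a log2 difference of 1.84 ± 0.203 (limma adjusted p = 0.000221). Its signals were 1492, 1739 and 1219 in WT high-fat and 1617, 2595 and 2970.1 in aERKO high-fat, and these groups overlapped as well.

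On high-fat diet the genotype difference of Cyp7b1 did not pass, at 0.52 ± 0.21 (SE) on the log2 scale for the brighter probe set (limma adjusted p = 0.278) and 0.65 ± 0.203 for the dimmer one (limma adjusted p = 0.152). Without aERKO high-fat replicate 1, the lowest aERKO sample, the latter was 0.91 (limma adjusted p = 0.03198). The high-fat samples lay on opposite sides of the normal ones in the genotypes. In WT all high-fat samples lay above all normal samples (0.64 ± 0.21 on the log2 scale for the brighter probe set, limma adjusted p = 0.468), and in aERKO all high-fat samples lay below all normal samples (-0.59 ± 0.21, limma adjusted p = 0.383). Neither diet difference passed alone. The diet difference in aERKO minus that in WT was -1.24 ± 0.29 for the brighter and -1.18 ± 0.29 for the dimmer probe set, with unadjusted p of 0.000855 and 0.00101, and limma adjusted p = 0.5704 for each. Averaged over the diets, Cyp7b1 was higher in aERKO by 1.13 ± 0.15 (brighter probe set, limma adjusted p = 0.000402) and 1.25 ± 0.14 (dimmer probe set, limma adjusted p = 0.000142).

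**Figure D2:**
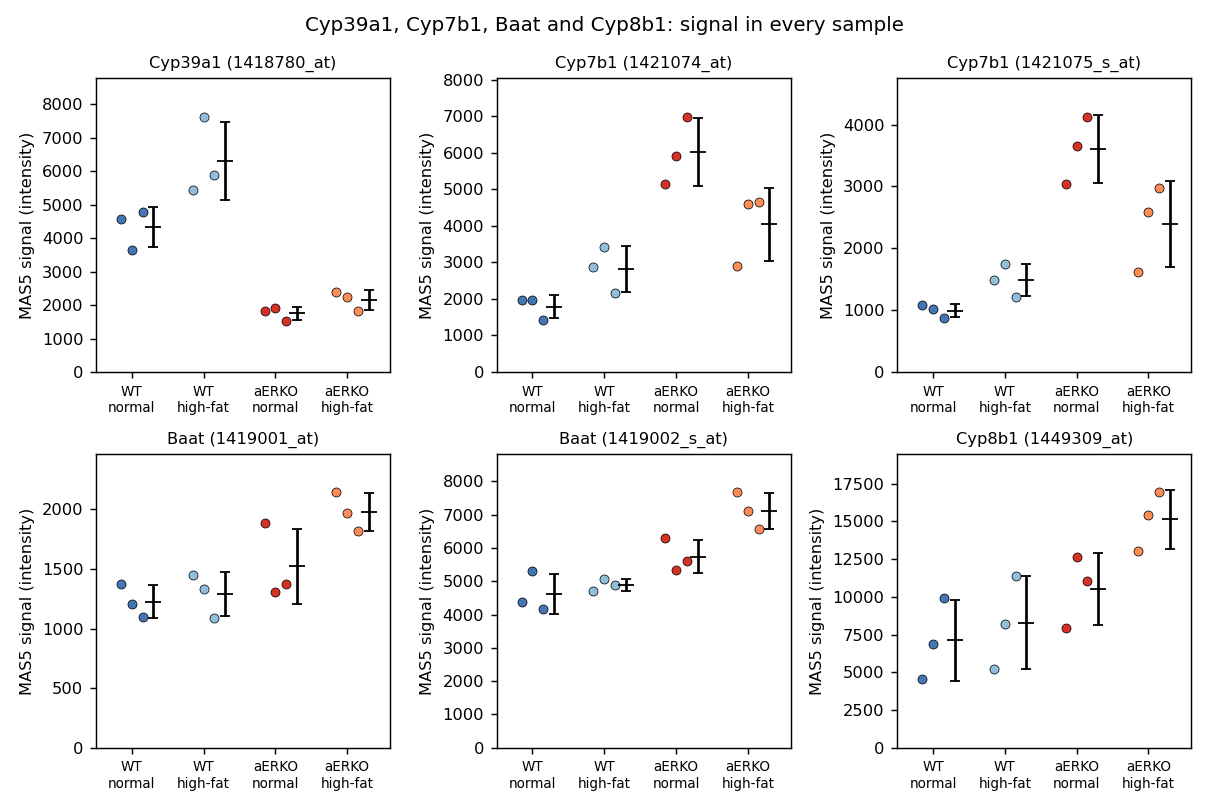
MAS5 signal (y axis, linear from 0) of 6 probe sets in every sample, by genotype and diet (x axis), with points for samples and bars for the mean and SD of 3. Cyp39a1 is lower in all aERKO samples, and Cyp7b1 in aERKO normal lies above every other group.

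Cyp7a1, the enzyme that limits the rate of the classical route, rose with high-fat diet when the genotypes were averaged, by 1 of its 2 probe sets. In aERKO the dimmer one gave 577, 756 and 813 on normal diet, and with high-fat diet 1963, 2080.2 and 2329. The WT samples gave 607, 1669.7 and 1295 on normal diet, and with high-fat diet 1314, 2544 and 2778. The diets were separate in aERKO and overlapped in WT. Averaged over the genotypes, high-fat diet was higher by 1.24 ± 0.23 (SE) on the log2 scale, a fold of 2.37 (limma adjusted p = 0.0272). Within aERKO the difference was 1.56 ± 0.32 (limma adjusted p = 0.0774) and within WT 0.93 ± 0.32 (limma adjusted p = 0.505).

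The brighter Cyp7a1 probe set showed the same order of group mean signals with more scatter. On the log2 scale the genotype difference on high-fat diet was near 0 for both, at -0.12 ± 0.44 (SE) for the brighter and 0.011 ± 0.32 for the dimmer. The brighter one gave 1910.5, 2162 and 3267 in aERKO normal and 7399.9, 8359 and 10319 in aERKO high-fat, which did not overlap. In WT it gave 2126, 9094 and 9079 on normal diet, and with high-fat diet 5898, 12436 and 11202, where WT normal replicate 1 lay far below the other two. Its diet difference averaged over the genotypes was 1.29 ± 0.31 (SE) on the log2 scale (limma adjusted p = 0.0995) and did not pass. The genotype difference on normal diet was -1.23 ± 0.44 (limma adjusted p = 0.305). That value depends on which WT sample is left out. Without WT normal replicate 1 it was -1.92 (limma adjusted p = 0.00439). Without replicate 2 or 3 of WT normal it was -0.88 (limma adjusted p = 0.493 and 0.653). It passed in 1 of 24 alternatives. Without WT normal replicate 1 the genotype difference averaged over the diets was -1.02 (limma adjusted p = 0.0109). The diet difference in aERKO then passed for both Cyp7a1 probe sets (1.56 with limma adjusted p = 0.0209 for the dimmer, and 1.85 with limma adjusted p = 0.0105 for the brighter). For the dimmer probe set the call averaged over the genotypes held in 4 of the 12 fits that left out 1 array, with adjusted p between 0.0114 and 0.0805. Without the 4 arrays with pancreatic transcripts it was 0.99 (limma adjusted p = 0.1602), and without the 2 arrays with muscle transcripts 1.18 (limma adjusted p = 0.116). This call did not pass the threshold without WT normal replicate 3 (0.0504), WT high-fat replicate 2 (0.0805), WT high-fat replicate 3 (0.0724), aERKO normal replicate 1 (0.0543), aERKO normal replicate 2 (0.05103), aERKO high-fat replicate 1 (0.0608), aERKO high-fat replicate 2 (0.0659) or aERKO high-fat replicate 3 (0.0651), where the value in brackets is the limma adjusted p, and the log2 difference ran from 1.04 to 1.41 over the 12 fits. With no intensity trend it did not pass (limma adjusted p = 0.178).

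Cyp27a1, the mitochondrial enzyme that hydroxylates the sterol side chain, had no called difference. Its bright probe set gave 11325, 9313 and 10984 in WT normal and 14446, 12841 and 11792 in aERKO normal, and these did not overlap. On high-fat diet it gave 10879, 12751 and 11383 in WT and 11999, 12256 and 10901 in aERKO, which overlapped. The genotype difference was 0.31 ± 0.11 (SE) on the log2 scale on normal diet (limma adjusted p = 0.294) and 0.0073 ± 0.11 on high-fat diet (limma adjusted p = 0.985). The 95% interval on high-fat diet, not adjusted for the number of probe sets, ran from -0.22 to 0.24.

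Of the enzymes that remodel the rings, Akr1d1, the steroid reductase that sets the bend between the first rings, rose with high-fat diet. For its brighter probe set the signals were 5762, 4963 and 4652 in WT normal and 10281, 9312 and 6485 in WT high-fat. The aERKO samples gave 7488, 5806 and 6655 on normal diet, and with high-fat diet 9663, 9713 and 11339. All high-fat samples lay above all normal samples of their genotype. The diet difference averaged over the genotypes was 0.68 ± 0.11 (SE) on the log2 scale, a fold of 1.604 (limma adjusted p = 0.0127). It was 0.74 ± 0.16 in WT (limma adjusted p = 0.143) and 0.63 ± 0.16 in aERKO (limma adjusted p = 0.173), neither of which passed alone. The averaged call held in all 12 fits that left out 1 array. Without the 4 arrays with pancreatic transcripts the log2 difference was 0.85, with only replicate 1 left in WT high-fat, the highest of its group (10281). With no intensity trend in the variance model the averaged call did not pass (limma adjusted p = 0.151).

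The second Akr1d1 probe set gave 4129, 5096 and 3431 in WT normal and 5931, 8062 and 6104 in WT high-fat. It gave 4430.5, 3693 and 4017 in aERKO normal and 7269, 6066 and 5456 in aERKO high-fat. The diets again did not overlap in either genotype. Its averaged diet difference was 0.65 ± 0.11 (SE) on the log2 scale (limma adjusted p = 0.0215), which held in 6 of the 12 fits that left out 1 array, with adjusted p up to 0.0627. It was 0.69 without the 2 arrays with muscle transcripts (limma adjusted p = 0.0731), and without the 4 with pancreatic transcripts it was 0.67 (limma adjusted p = 0.102). The averaged call of this probe set did not pass the threshold without WT normal replicate 1 (0.0545), WT high-fat replicate 2 (0.0596), aERKO normal replicate 2 (0.0555), aERKO normal replicate 3 (0.0517), aERKO high-fat replicate 1 (0.0627) or aERKO high-fat replicate 2 (0.0597), where the value in brackets is the limma adjusted p, and the log2 difference ran from 0.58 to 0.72 over the 12 fits. It also did not pass with no intensity trend (limma adjusted p = 0.178) or with median centring (limma adjusted p = 0.0509). The diet difference of the brighter probe set in WT passed the threshold without WT high-fat replicate 3 (0.0339), where the value in brackets is the limma adjusted p, and the log2 difference ran from 0.605 to 0.94 over the 12 fits. Genotype differences of Akr1d1 did not pass on either diet, and averaged over the diets they were 0.32 ± 0.11 for the brighter and -0.069 ± 0.11 for the other probe set, on opposite sides of 0.

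**Figure D3:**
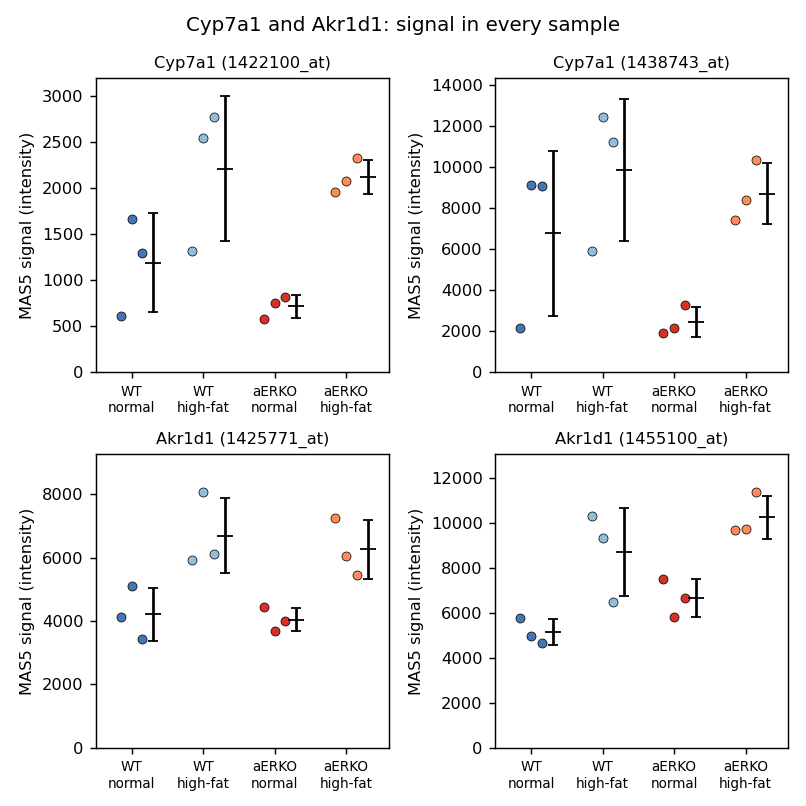
MAS5 signal (y axis, linear from 0) of the Cyp7a1 and Akr1d1 probe sets in every sample, by genotype and diet (x axis), with bars for the mean and SD of 3. In aERKO all high-fat samples lie above all normal samples in the 4 panels, and in WT the diets overlap for Cyp7a1 only.

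Cyp8b1, the sterol hydroxylase needed for cholic acid, had higher means in aERKO but its differences missed the threshold. Its probe set gave 4545, 6888 and 9912 in WT normal and 7913, 12629 and 11043 in aERKO normal, with overlap. On high-fat diet it gave 5231, 8227 and 11398 in WT and 13057, 15419 and 16925 in aERKO, with no overlap, and the latter also lay above aERKO normal. The means were 7115 ± 2691, 10529 ± 2399.8, 8285 ± 3084 and 15134 ± 1949.8 in that order (SD, n = 3 each). The log2 difference was 0.61 ± 0.28 (SE) on normal diet (limma adjusted p = 0.455), 0.93 ± 0.28 on high-fat diet (limma adjusted p = 0.1405) and 0.77 ± 0.199 averaged over the diets (limma adjusted p = 0.05101). The averaged value lay close to the threshold and passed with median centring (0.86, limma adjusted p = 0.0274). Without the 4 arrays with pancreatic transcripts it was 1.17, but that fit kept only replicate 1 of WT high-fat, the lowest of its group (5231). The averaged difference passed the threshold without WT normal replicate 3 (0.0241), WT high-fat replicate 3 (0.0247) or aERKO normal replicate 1 (0.0331), where the value in brackets is the limma adjusted p, and the log2 difference ran from 0.62 to 0.91 over the 12 fits. Over the alternatives its adjusted p rose as high as 0.152.

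Hsd3b7, the dehydrogenase that acts after ring hydroxylation in each route, had no called difference. Its signals were 17126, 15938 and 15686 in WT normal and 18515, 17865 and 20584 in WT high-fat. The aERKO samples gave 14223, 18356 and 17203 on normal diet, and with high-fat diet 15704, 15594 and 18414. In WT the high-fat samples lay above the normal ones (0.22 ± 0.11 (SE) on the log2 scale, limma adjusted p = 0.668), and the other pairs of groups overlapped. Its genotype difference averaged over the diets was -0.087 ± 0.075, with an unadjusted 95% interval from -0.25 to 0.074.

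Of the enzymes of the side chain and of conjugation, Baat, which joins bile acids to taurine or glycine, was higher in aERKO. Its brighter probe set gave 4364, 5296 and 4179.6 in WT normal and 6298, 5331 and 5607 in aERKO normal. On high-fat diet it gave 4711, 5066 and 4901 in WT and 7671, 7101 and 6569 in aERKO. The genotypes did not overlap on either diet. Averaged over the diets the log2 difference was 0.43 ± 0.079 (SE), a fold of 1.35 (limma adjusted p = 0.00774). It was 0.54 ± 0.11 on high-fat diet (limma adjusted p = 0.0287) and 0.32 ± 0.11 on normal diet (limma adjusted p = 0.289), where it did not pass. The call on high-fat diet held in 7 of the 12 fits that left out 1 array, with adjusted p up to 0.144, whereas the averaged call held in all 12. The high-fat call did not pass the threshold without WT high-fat replicate 1 (0.139), WT high-fat replicate 2 (0.0813), WT high-fat replicate 3 (0.0795), aERKO high-fat replicate 1 (0.144) or aERKO high-fat replicate 2 (0.124), where the value in brackets is the limma adjusted p, and the log2 difference ran from 0.48 to 0.59 over the 12 fits. With no intensity trend neither call passed (limma adjusted p = 0.147 on high-fat diet and 0.0597 averaged). On high-fat diet the difference was 0.59 without the 4 arrays with pancreatic transcripts (limma adjusted p = 0.237) and 0.54 without the 2 with muscle transcripts (limma adjusted p = 0.111). Without the 4 arrays with pancreatic transcripts the averaged value was 0.47 (limma adjusted p = 0.0617).

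The dimmer Baat probe set gave 1371, 1206 and 1100.3 in WT normal and 1884, 1304 and 1376 in aERKO normal, which overlapped. On high-fat diet it gave 1452, 1329.6 and 1089 in WT and 2142, 1971 and 1823 in aERKO, which did not. Its averaged genotype difference was 0.46 ± 0.11 (SE) on the log2 scale (limma adjusted p = 0.0417), and that call held in 3 of the 12 fits that left out 1 array, with adjusted p up to 0.104. The call did not pass the threshold without WT normal replicate 2 (0.0752), WT normal replicate 3 (0.0899), WT high-fat replicate 1 (0.0505), WT high-fat replicate 2 (0.0816), WT high-fat replicate 3 (0.0891), aERKO normal replicate 1 (0.0704), aERKO normal replicate 3 (0.0525), aERKO high-fat replicate 1 (0.104) or aERKO high-fat replicate 2 (0.0925), where the value in brackets is the limma adjusted p, and the log2 difference ran from 0.37 to 0.51 over the 12 fits. Nor did it pass with no intensity trend (limma adjusted p = 0.114). The difference on high-fat diet passed the threshold without aERKO normal replicate 1 (0.0394), where the value in brackets is the limma adjusted p, and the log2 difference ran from 0.502 to 0.71 over the 12 fits. The averaged difference was 0.38 without the 2 arrays with muscle transcripts (limma adjusted p = 0.1395), and without the 4 with pancreatic transcripts it was 0.28 (limma adjusted p = 0.388).

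Amacr, the racemase of the side chain, and Slc27a5, the ligase that activates bile acids for conjugation, had no called difference. Amacr gave 8983, 8931 and 8420.4 in WT normal, 9512, 8728 and 7177 in WT high-fat, 10150.1, 8609 and 9531 in aERKO normal and 8489.6, 9019 and 8048 in aERKO high-fat. Every pair of groups overlapped, and the averaged genotype difference was 0.058 ± 0.077 (SE) on the log2 scale, with an unadjusted 95% interval from -0.11 to 0.22. Slc27a5 gave 32379.7, 29592 and 26614 in WT normal and 30213, 31880.4 and 30929 in WT high-fat. In aERKO it gave 30463, 29573 and 25886 on normal diet, and with high-fat diet 27668, 28107 and 28002, where the samples lay below those of WT. That difference was -0.15 ± 0.088 on the log2 scale (limma adjusted p = 0.484), and averaged over the diets it was -0.097 ± 0.062, with an unadjusted 95% interval from -0.23 to 0.036.

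**Figure D4:**
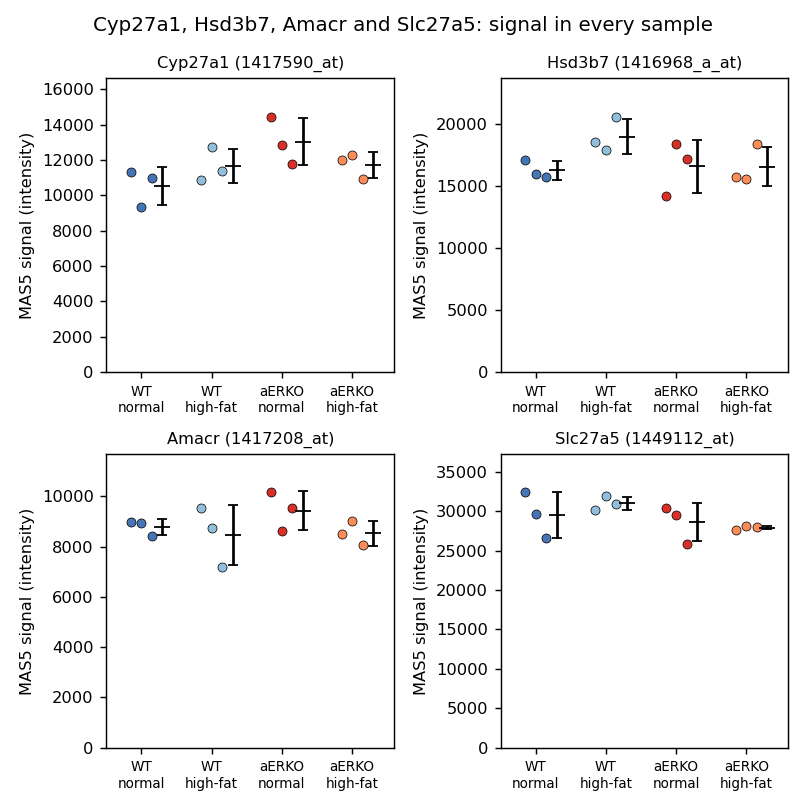
MAS5 signal (y axis, linear from 0) of Cyp27a1, Hsd3b7, Amacr and Slc27a5 in every sample, by genotype and diet (x axis), with bars for the mean and SD of 3. Slc27a5 lies between 25886 and 32379.7 on the 12 arrays.

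Counted over the 14 tested probe sets, the calls fell on 5 of the 10 genes. For genotype on normal diet 2 were higher and 1 was lower in aERKO, where 0.713% of all tested probe sets were called (0.339% higher, 0.374% lower). For genotype on high-fat diet 1 was higher and 1 lower (1.19% of all called, 0.661% higher and 0.531% lower), and averaged over the diets 4 were higher and 1 lower (3.16% of all called, 1.55% higher and 1.61% lower). For diet averaged over the genotypes 3 were higher and 0 lower on high-fat diet (0.492% of all called, 0.327% higher and 0.165% lower). For diet within WT and within aERKO 0 were called by limma. Of all probe sets 0.0276% were called in WT (0.00787% higher, 0.0197% lower) and 0.181% in aERKO (0.118% higher, 0.063% lower). In WT 6 and in aERKO 8 of the 14 still had an unadjusted p under 0.05, against 7.55% and 9.17% of all. The interaction had 0 calls among the members and among all 25400 probe sets (0% called), and 2 of the 14, both of Cyp7b1, had an unadjusted p under 0.05, against 5.41% of all. The members' median log2 difference was 0.197 for genotype on normal diet and 0.014 on high-fat diet, beside medians over all probe sets of -0.050 and -0.055. For diet it was 0.379 in WT and 0.298 in aERKO, beside -0.0072 and -0.0103. Probe sets of 1 gene share its transcript and are not independent, and the members were chosen with earlier results of these data known. With median centring the share of all genotype calls that were higher in aERKO moved from 47.5% to 62.1% on normal diet, from 55.4% to 70.6% on high-fat diet and from 49.1% to 72.7% averaged over the diets.

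Further enzymes of the pathway were read from a list of 16 genes, of which 12 were tested with 17 probe sets. Of these, 1 was lower in aERKO on normal diet, 1 lower on high-fat diet, 2 lower averaged over the diets and 1 higher on high-fat diet averaged over the genotypes. Of all tested probe sets 0.374%, 0.531%, 1.61% and 0.327% were called in these directions. Acnat2, a peroxisomal acyltransferase related to Baat, gave 2642, 2599 and 2253 in WT normal and 925, 1069 and 1122 in aERKO normal. On high-fat diet it gave 1862, 2209.8 and 2740 in WT and 1873, 1699 and 1582 in aERKO. The genotypes were far apart on normal diet (-1.25 ± 0.15 (SE) on the log2 scale, limma adjusted p = 0.000325) and nearer, with overlap, on high-fat diet (-0.38 ± 0.15, limma adjusted p = 0.245). The interaction was 0.87 ± 0.21 (unadjusted p = 0.000808, limma adjusted p = 0.5695). On normal diet the genotype difference was -1.14 without the 4 arrays with pancreatic transcripts. It was -1.17 (limma adjusted p = 0.004404) without the 2 with muscle transcripts.

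Cyp2c70, which in mice makes muricholic acids, was called for both factors. It gave 5538, 6991 and 4809 in WT normal and 12430.5, 13115 and 11970.4 in WT high-fat. In aERKO it gave 5161, 3948 and 3475 on normal diet, and with high-fat diet 7886, 8116 and 4487. WT high-fat lay above each other group with no overlap, while the diets overlapped in aERKO. Averaged over the genotypes it rose with high-fat diet by 0.8996 ± 0.15 (SE) on the log2 scale (limma adjusted p = 0.0132), and averaged over the diets the aERKO minus WT difference was -0.69 ± 0.15 (limma adjusted p = 0.01898). Without the 4 arrays with pancreatic transcripts neither passed, with 1.05 (limma adjusted p = 0.0782) for diet and -0.69 (limma adjusted p = 0.145) for genotype. Without the 2 arrays with muscle transcripts both passed. With no intensity trend neither passed (limma adjusted p = 0.148 and 0.0931), and with median centring the genotype difference did not (limma adjusted p = 0.0685), nor did it without WT high-fat replicate 2 (limma adjusted p = 0.0527). On high-fat diet alone the genotype difference was -0.92 ± 0.21 (limma adjusted p = 0.0473). That call was lost with no intensity trend (limma adjusted p = 0.171) and with median centring (0.122). It was also lost without WT high-fat replicate 1 (0.154), 2 (0.17) or 3 (0.0928). The same held without aERKO high-fat replicate 1 (0.0616), 2 (0.0604) or 3 (0.0764), WT normal replicate 1 (0.0651) or aERKO normal replicate 2 (0.0655). Without the 4 arrays with pancreatic transcripts the difference was -0.91, with only replicate 1 left in WT high-fat. Marker scores as covariates (0.113) and no filter on dim probe sets (0.0642) lost the call too. Among the fits that kept it were quantile normalization (0.0217) and leaving out aERKO normal replicate 1 (0.0298).

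**Figure D5:**
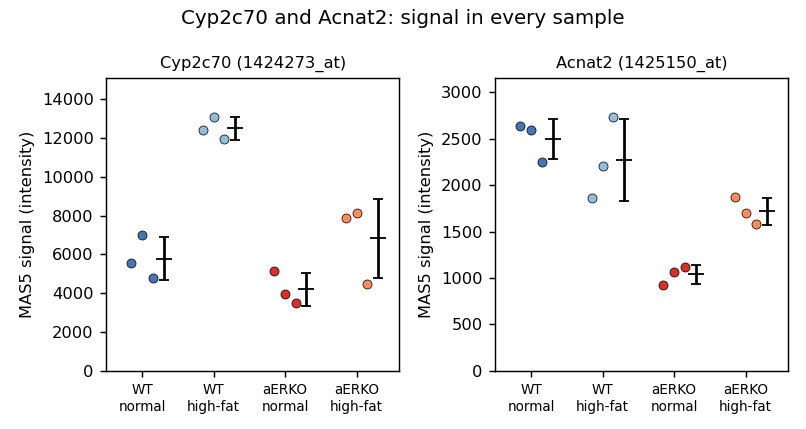
MAS5 signal (y axis, linear from 0) of Cyp2c70 and Acnat2 in every sample, by genotype and diet (x axis), with bars for the mean and SD of 3. Cyp2c70 is highest in WT high-fat and Acnat2 is lowest in aERKO normal.

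Of 14 regulators of the pathway, all tested with 33 probe sets in all, 1 probe set was called in any comparison. For genotype averaged over the diets this is 1 of 33, where 3.16% of all tested probe sets were called, a share near the background. It belonged to Ppara, the fatty acid sensing receptor, and was lower in aERKO averaged over the diets (-0.35 ± 0.089 (SE) on the log2 scale, limma adjusted p = 0.0447). It did not pass without the 4 arrays with pancreatic transcripts (-0.35, limma adjusted p = 0.223), without the 2 with muscle transcripts (-0.26, limma adjusted p = 0.179) or without any 1 array other than replicate 3 of aERKO normal or of aERKO high-fat (limma adjusted p up to 0.1195). The other 2 Ppara probe sets gave -0.355 ± 0.105 (limma adjusted p = 0.0867) and -0.21 ± 0.099 (limma adjusted p = 0.289). No other regulator of the list, which holds the bile acid, sterol and xenobiotic receptors and the repressor and growth factor receptor through which bile acids restrain Cyp7a1 and Cyp8b1, had a probe set called. Over the 33 probe sets the median log2 difference for genotype was -0.058 on normal diet and -0.178 on high-fat diet. All tested probe sets gave -0.050 and -0.055. For diet it was -0.027 in WT and -0.170 in aERKO, beside -0.0072 and -0.0103 over all. These shifts of the medians were not tested.

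The stretch of 250 bases before the start of the gene, from RefSeq on GRCm38.p6, was found for 4 of the 10 genes and is printed for Cyp8b1 and Akr1d1, which changed or came near the threshold, and for Cyp2c70, which was called for both factors. Capitals mark every match, on either strand, to an estrogen response element, a nuclear receptor half-site (AGGTCA), an HNF4 site (CAAAGTCCA), an NR5A2 site (CAAGGNCA), a C/EBP site (TTGCNNAA) or a TATA box (TATAAA).
Cyp8b1 (chr9:121916306-121916555, minus strand): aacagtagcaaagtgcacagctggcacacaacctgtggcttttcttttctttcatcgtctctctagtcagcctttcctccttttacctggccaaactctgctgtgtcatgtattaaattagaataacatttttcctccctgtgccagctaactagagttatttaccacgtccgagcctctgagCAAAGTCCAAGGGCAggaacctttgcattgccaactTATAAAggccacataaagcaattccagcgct
Akr1d1 (chr6:37529923-37530172, plus strand): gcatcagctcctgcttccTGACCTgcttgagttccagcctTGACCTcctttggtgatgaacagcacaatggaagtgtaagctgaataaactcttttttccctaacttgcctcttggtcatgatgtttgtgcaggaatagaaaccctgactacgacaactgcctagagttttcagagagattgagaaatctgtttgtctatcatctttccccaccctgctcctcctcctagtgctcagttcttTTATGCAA
Cyp2c70 (chr19:40187287-40187536, minus strand): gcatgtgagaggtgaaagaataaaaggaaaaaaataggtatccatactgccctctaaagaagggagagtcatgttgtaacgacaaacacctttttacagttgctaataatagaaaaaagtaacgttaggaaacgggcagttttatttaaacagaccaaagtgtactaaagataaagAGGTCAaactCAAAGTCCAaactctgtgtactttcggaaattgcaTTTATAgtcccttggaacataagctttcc
Cyp8b1 held an HNF4 site from position -67 to -59 and an NR5A2 site from -60 to -53, which overlap, and a TATA box from -31. Cyp2c70 also held an HNF4 site, from -64, next to a half-site. Its TATA box match, from -29, lay on the opposite strand. Akr1d1 held 2 half-sites, from -232 and from -210, and a C/EBP site that ended at the last base before the start. Among 32851 stretches of the same length, the HNF4 site occurred in 0.384%, the NR5A2 site in 5.53%, the half-site in 14%, the C/EBP site in 9.56%, the TATA box in 12.4% and the estrogen response element in 0.0639%. The estrogen response element was in none of these stretches. Hsd3b7 and Cyp27a1 held none of these 6 motifs. These matches describe the letters only.

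The genes whose log2 signals ran most like each called enzyme were found by Pearson correlation over the 12 arrays, which share the 4 groups and the scaling. For Cyp39a1 they were Qpct (0.97), Cyp2b13 (0.95), Hrg (0.95). For Cyp7b1 (brighter probe set) they were C8b (0.96), Mup10 (0.94), Pttg1ip (0.93). For Baat (brighter probe set) they were Selenof (0.97), Srp14 (0.96), Commd9 (0.94), for Akr1d1 (brighter probe set) Endog (0.94), Commd3 (0.92), Hsd3b2 (0.92) and for Cyp7a1 (dimmer probe set) Cks2 (0.94), Mocs2 (0.92), Aldh1b1 (0.92). Averaged over the diets, the log2 difference of aERKO minus WT was -1.03 for Qpct, -6.56 for Cyp2b13, a P450 typical of female mouse liver, and -0.18 for Hrg. For the genes most like Cyp7b1 it was 1.16 for C8b, 1.46 for Mup10, a major urinary protein gene, and 0.31 for Pttg1ip. Between probe sets of 1 gene the correlation was 0.991 for Cyp7b1, 0.954 for Cyp7a1, 0.873 for Baat and 0.709 for Akr1d1.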

How the data were processed

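Liver RNA of 12 mouse samples had been hybridised to 1 Affymetrix array each. The authors deposited 1 linear intensity per probe set, made with MAS5 in Affymetrix Expression Console per the submitters' processing notes, and the trimmed mean (2% off each side) was 500.004 on every array. The 64 control probe sets were left out. Values were taken as log2(signal + 16) with no further scaling, and the filter and threshold are given in the results. One cell-means model of the 4 groups was fitted to the 25400 probe sets with limma 3.58.1 (R 4.3.3, lmFit and eBayes with an intensity trend, 8 residual degrees of freedom), with Benjamini-Hochberg adjustment over all of them. The fit was also run on simulated data with independent normal noise and 200 changed probe sets. That simulation held no transcripts of other tissues and no shared array effects, so it does not cover these features of the arrays. Gene names came from the platform annotation: 34945 probe sets had 1 symbol, 932 had several and 9160 were not listed. Promoters came from RefSeq (GRCm38.p6).

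The members and the lists of other enzymes, regulators and cell type markers were chosen with earlier results of these data known. Values in every sample were given for the brightest probe set of each member and for every member probe set called. Of the lists, genes with a called probe set were named, with the 3 genes most correlated with the brightest called probe set of each called member. The labels do not state that each sample is another animal. The p-values therefore reflect the spread of samples within groups, which may be technical. The model shared that spread over the 4 groups, and limma drew it toward that of probe sets with similar signal. The number of arrays limits the precision, and the median standard error was 0.235 on the log2 scale for 2 groups and 0.332 for the interaction. Within groups, arrays correlated at 0.938 to 0.963 and no 2 were identical. Whether the replicate numbers pair the samples is not stated in the labels. Over all tested probe sets, deviations from the group mean correlated by -0.017 on average for same-numbered samples and 0.0085 for others. Of 18 same-numbered pairs 5 had a correlation over 0.1. These averages do not settle whether the numbers pair the samples. Replicate 1 was the lowest sample in each of the 4 groups for Cyp8b1 and for both Cyp7a1 probe sets. The alternatives were other pseudocounts, filters, scalings, variance models and sets of samples, 1 probe set per gene, the marker scores as covariates, a replicate block and leaving out each array, plus, chosen after seeing the data, leaving out the 2 arrays with muscle transcripts.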

Additional observations from a re-analysis of the deposited data

Results flagged for a closer look

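Cyp7b1 was flagged because every high-fat sample lay above every normal sample in WT and below every normal sample in aERKO. How many of all tested probe sets separate in this way was not counted. The unadjusted limma p of the interaction was 0.000855 and 0.00101 for its probe sets, and Acnat2 had a similar value of 0.000808. The diet difference in aERKO minus that in WT was -1.24 ± 0.29 (SE) on the log2 scale for the brighter probe set and -1.18 ± 0.29 for the dimmer one, 3 samples a group. In the test of this difference itself, limma gave an adjusted p = 0.57 for each, which did not pass. Over the alternatives the value ran from -1.47 to -1.01 for the brighter and from -1.38 to -0.93 for the dimmer probe set. The 2 probe sets measure 1 transcript and are not separate evidence.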

How the results depend on the processing

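Of 165 recomputed counts of called member probe sets, 144 were kept, but many of these were counts of 0 that stayed 0. Those were 23 of 24 for diet in WT, 21 of 24 for diet in aERKO and 23 of 23 for the interaction. Where there were calls, the count stayed within 1.5 times the reported one as follows. For genotype it did in 24 of 24 on normal diet, 16 of 24 on high-fat diet and 22 of 23 averaged. For diet averaged over the genotypes it did in 15 of 23. The 13 called member differences had 1 sign in every setting. Of all 98 member differences 28, none of them called, had another sign in at least 1 setting. For genotype on normal diet the 3 calls stayed 3 to 4 when each array was left out. For genotype on high-fat diet the 2 calls became 1 with no intensity trend, 1 without the 4 arrays with pancreatic transcripts, 1 without the 2 arrays with muscle transcripts and 4 with a replicate block, and 1 to 3 when each array was left out. Averaged over the diets the 5 genotype calls became 3 with no intensity trend, and 4 to 6 when each array was left out. Diet in aERKO had 0 calls but 2 when only its groups were fitted and 2 with a replicate block, and 0 to 2 when each array was left out. Diet in WT had 0 to 1, and the interaction 0 in each of these fits. For diet averaged over the genotypes the 3 calls became 0 with no intensity trend and 1 with 1 probe set per gene, without the 4 pancreatic arrays or without the 2 muscle arrays, and 1 to 3 when each array was left out. With the replicate block Cyp8b1 passed for genotype on high-fat diet (limma adjusted p = 0.0108) and averaged over the diets (0.00187). The block is given here only, since the labels do not say that the numbers pair the samples. Same-numbered pairs had correlations of -0.268 to 0.205. Differences of a size near the median standard error could not be told from the spread with 3 arrays a group. The fit without the 4 pancreatic arrays kept only replicate 1 in WT high-fat. Why the calls moved was not tested.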

Other observations

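Genes of the daily clock, of which Cyp7a1 is a known target in rodent liver, were read after the values of the enzymes had been seen. The brighter probe set of Dbp, a clock-driven transcription factor that binds the Cyp7a1 promoter in rats, gave 1909.7, 3253 and 2537 in WT normal, 4957, 3681 and 1342 in WT high-fat, 809, 5904 and 4195 in aERKO normal and 1365, 1887 and 3142 in aERKO high-fat. The brighter probe set of Arntl, which encodes the clock activator BMAL, gave 268, 240.1 and 268 in WT normal, 142, 251 and 492 in WT high-fat, 625, 191 and 236 in aERKO normal and 582, 506 and 466 in aERKO high-fat. The clock gene Per2 was read as well, and no probe set of Dbp, Arntl or Per2 was called in any comparison. Replicate 1 of aERKO normal had the lowest Dbp and, by the brighter probe set, the highest Arntl of the 12 samples. By the dimmer Arntl probe set it gave 141, below the 240 of WT normal replicate 3. The same array had high pancreatic (13.6) and muscle (10.6) transcript scores. The part of these differences in the results for Cyp7a1 and the other enzymes was not tested.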
